A study of Rattus norvegicus with 6 samples.

Results

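Actin isoforms and a group of actin-binding proteins were measured in rat hearts, 3 from normal and 3 from diabetic animals, with the RNA of each left ventricle on 1 Affymetrix array. The 10 genes are the cytoplasmic actins Actb and Actg1, the muscle actins Acta1, Acta2 and Actc1, and the actin-binding proteins Tagln, Pfn1, Cfl1, Tmsb4x and Tmsb10. They were taken by name, as every probe set annotated with one of these symbols plus the 3 beta-actin control probe sets, which gave 16 of the 15923 probe sets on the array. The genes were chosen by the measured difference between diabetic and normal hearts on these same arrays, which was known when the group was put together. Differences between the groups are therefore a description here. Where the fit across all probe sets marked some of these sets, that is given as a count and supports nothing. Per the labels, the animals differ as normal or diabetic and the tissue is left ventricle. The labels used here give no strain, age, sex, way of inducing diabetes or duration.

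Actin polymerises into filaments, and vertebrates carry separate genes for nearly identical actin proteins. Alpha-cardiac actin (Actc1) builds the thin filament of the adult ventricle, alpha-skeletal actin (Acta1) is shared with skeletal muscle, and alpha-smooth muscle actin (Acta2) marks vessel walls and activated fibroblasts. The cytoplasmic beta and gamma forms (Actb, Actg1) make up the cortex and stress fibres of most cells, and beta-actin is widely used as a reference transcript. Profilin (Pfn1) delivers actin monomers to growing filaments, cofilin (Cfl1) severs old ones, the beta-thymosins (Tmsb4x, Tmsb10) hold monomers in reserve, and transgelin (Tagln) binds filaments in smooth muscle.

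Because these genes are close copies, many probe sets do not separate them. Of the 13 probe sets outside the controls, 6 are annotated to 1 gene and 7 to several. Actg1, Acta1, Acta2, Tagln, Pfn1 and Tmsb4x each have 1 probe set of their own. Actb, Actc1, Cfl1 and Tmsb10 are read only by shared sets, apart from the beta-actin controls, so a signal there cannot be given to 1 gene. All 13 passed the filter on dim probe sets (a mean signal above the 40th percentile, 117.6). The lowest single signal, that of Tagln in diabetic heart 1, lay at the 40.9th percentile of its array.

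The cytoplasmic actins were lower in every diabetic heart, at all 6 of their probe sets. The probe set of Actg1 alone (1371327_a_at) held signals of 10973, 8287 and 12104 in normal hearts 1, 2 and 3, and of 3438, 3094 and 4277 in diabetic hearts 1, 2 and 3. Its lowest normal value was well above its highest diabetic value. The means were 10455 ± 1960 and 3603 ± 609 (SD, n = 3 per group), a 2.90-fold lower signal. On the log2(signal + 16) scale used for all differences here, Actg1 was at -1.53 ± 0.19 (SE), diabetic minus normal. That is the 28th lowest of the 9518 tested probe sets.

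Both probe sets shared by Actb, Actg1 and the annotated copy Actg1l1 lay lower as well. At 1398835_at the normal hearts held 7084, 7841 and 10011 and the diabetic hearts 4194, 4226 and 4046. The diabetic values were tightly grouped, with a coefficient of variation of 2.31% against 18.3% in the normal hearts. The means of 8312 ± 1519 and 4155 ± 96.2 gave a log2 difference of -0.98 ± 0.16. At 1398836_s_at, whose suffix marks probes common to several transcripts, the signals were 11136, 8646 and 11815 against 6813, 5046 and 5103, with a log2 difference of -0.90 ± 0.19. Diabetic heart 1 was the highest of its group there, and still below normal heart 2. All 3 sets separated the groups, with the largest log2 difference at the set of Actg1 alone.

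The array's beta-actin control probe sets read the 5' end, the middle and the 3' end of the Actb transcript. The 5' set held 6079, 4550 and 7542 in normal and 4208, 3505 and 2867 in diabetic hearts, a log2 difference of -0.76 ± 0.26. Normal heart 2 came close to diabetic heart 1 in that set, without overlap. The middle set held 6959, 7335 and 8164 against 4437, 3808 and 2973 (log2 difference -1.01 ± 0.18). For the 3' set the values were 7572, 8371 and 10063 against 5193, 4590 and 4615 (log2 difference -0.84 ± 0.13). In all 3 parts, then, each diabetic heart lay under each normal heart. The control sets stand outside the fit across probe sets, so their errors come from their own 6 values.

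**Figure D1:**
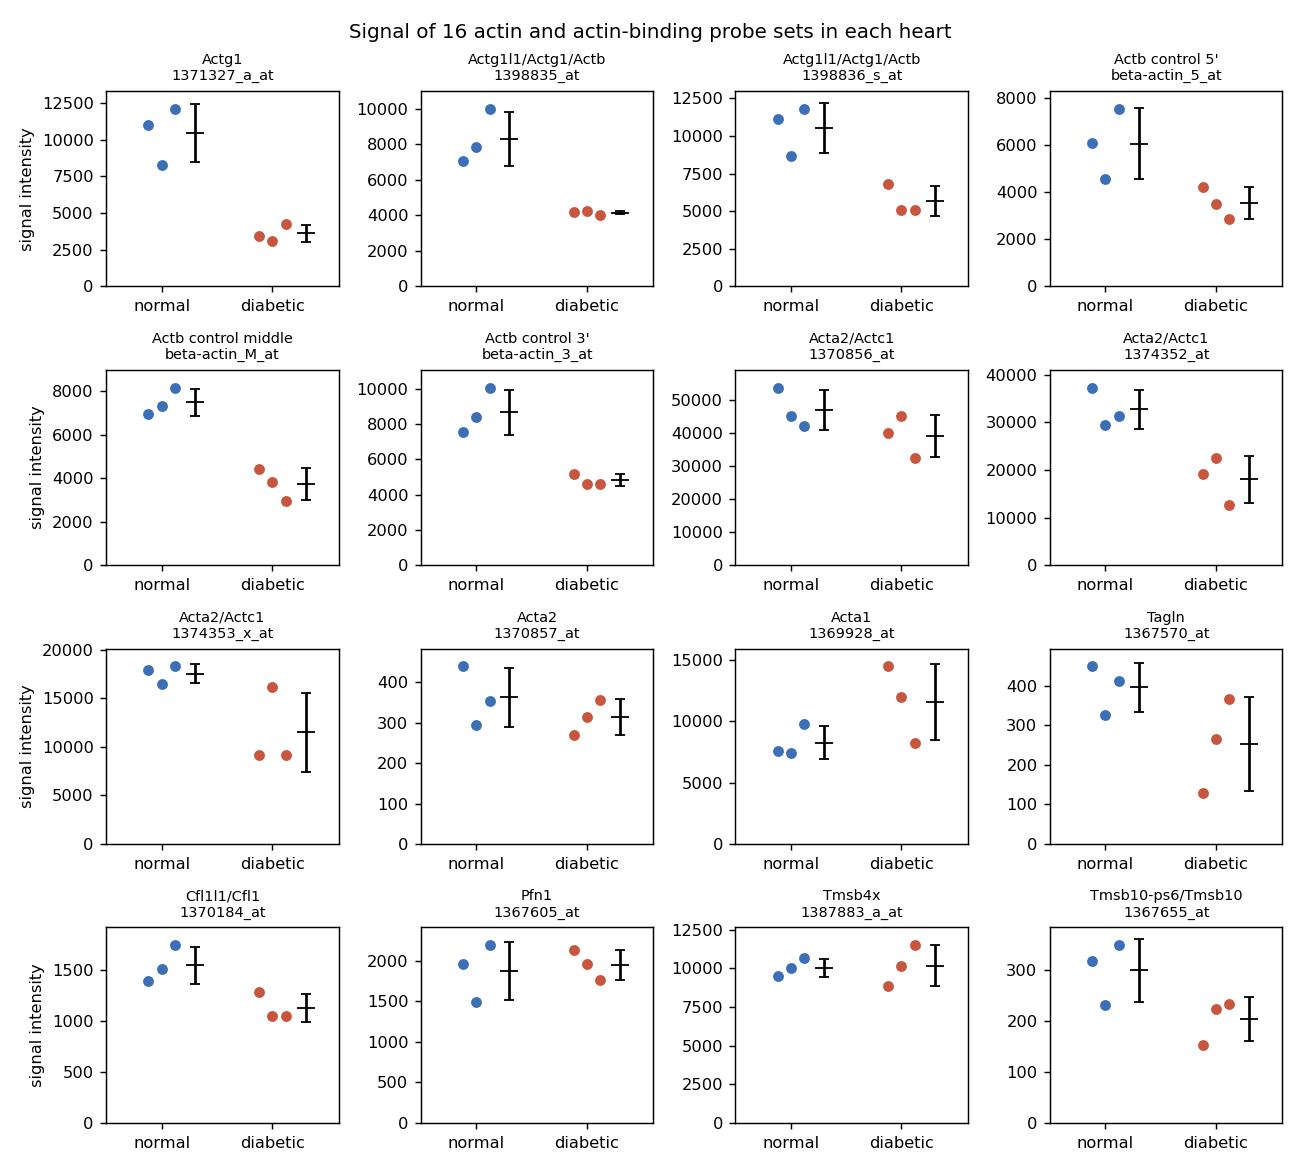
Signal intensity (linear scale, each panel from 0) of the 16 probe sets in 3 normal (blue) and 3 diabetic (red) hearts, with the mean and SD of each group beside the points. The 6 cytoplasmic actin panels come first and show no overlap, while Acta1 exceeds the normal range in 2 of the 3 diabetic hearts and Pfn1 and Tmsb4x overlap fully.

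The ends of the transcript give a check of RNA integrity that the choice of genes did not use. The 3'/5' signal ratio of beta-actin was 1.25, 1.84 and 1.33 in the normal hearts and 1.23, 1.31 and 1.61 in the diabetic hearts. The ranges overlap, and the log2 ratio differed by -0.08 between groups (exact permutation test, two-sided, p = 0.6, where 0.1 is the smallest value that 3 against 3 allows). Without normal heart 2 the difference was 0.09. The middle/5' ratio was 1.14, 1.61 and 1.08 against 1.05, 1.09 and 1.04 (exact permutation p = 0.2), with normal heart 2 again the high one. For Gapdh, the glycolytic enzyme used as the array's other control transcript, the 3'/5' ratios averaged 1.29 ± 0.09 and 1.32 ± 0.09 (exact permutation p = 0.7), and the middle/5' log2 ratio differed by -0.05 (exact permutation p = 0.6). The Gapdh 3'/middle ratio was higher in every diabetic heart, at 0.96, 1.02 and 1.03 in normal and 1.12, 1.04 and 1.03 in diabetic hearts, a log2 difference of 0.09 at the smallest p possible (exact permutation p = 0.1). The groups barely separated there, with 1.027 in normal heart 3 and 1.028 in diabetic heart 3. For beta-actin the 3'/middle ratio was 1.09, 1.14 and 1.23 against 1.17, 1.21 and 1.55, a log2 difference of 0.17 with overlap (exact permutation p = 0.3). These are 6 ratios, with p-values not adjusted, and the part of RNA integrity in the actin differences was not tested. The Gapdh signals themselves overlapped between groups in all 3 parts, with log2 differences of -0.07, -0.13 and -0.04. Within each array, beta-actin minus Gapdh (mean log2 signal of the 3 parts of each) was -2.31, -2.27 and -1.72 in normal and -2.63, -2.99 and -3.05 in diabetic hearts. The diabetic values all lie below the normal ones, and the group means differ by -0.79.

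**Figure D2:**
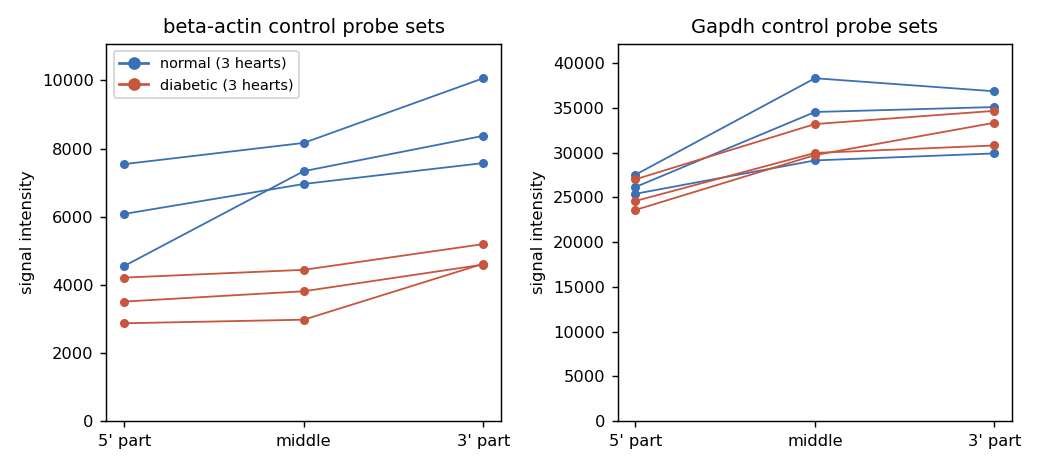
Signal intensity (linear scale from 0) of the 5', middle and 3' control probe sets of beta-actin (left) and Gapdh (right), 1 line per heart. All diabetic lines (red) run below all normal lines (blue) at each part of beta-actin, whereas the Gapdh lines are interleaved.

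Actc1, the main actin of the ventricle, shares its 3 probe sets with Acta2, and these disagreed with each other in size. The brightest, 1370856_at, held 53640, 45026 and 41887 in normal and 39831, 44996 and 32270 in diabetic hearts. The groups overlapped, and the log2 difference was -0.27 ± 0.18 (-0.14 without diabetic 3 and -0.17 without normal 1). On every array this set lay at the 99.9th percentile of signals or above. At 1374352_at the signals were 37326, 29499 and 31342 against 19111, 22431 and 12653, with no overlap and a log2 difference of -0.89 ± 0.22. At 1374353_x_at, drawn from the same transcript record and marked for probes that can bind other sequences, they were 17857, 16437 and 18272 against 9151, 16171 and 9182. Diabetic heart 2 was near the normal range there, and the log2 difference was -0.66 ± 0.23 (-0.93 without that heart). The coefficients of variation in the diabetic hearts, 27.5% and 35.2%, exceeded those of the normal hearts, 12.5% and 5.49%. All 3 sets pointed the same way, with differences between 1.20- and 1.85-fold on the log scale. Which of the 2 genes they read, was not tested.

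The probe set of Acta2 alone (1370857_at) held 439, 294 and 354 in normal and 269, 315 and 356 in diabetic hearts, so the groups overlapped. Its log2 difference was -0.19 ± 0.18 (-0.05 without normal 1, -0.09 without diabetic 1 and -0.32 without normal 2). Tagln, its usual companion in smooth muscle, held 448, 326 and 411 against 128, 266 and 365. Diabetic heart 1 was the low one, the other 2 reached toward or into the normal range, and the log2 difference of -0.71 ± 0.32 shrank to -0.32 without that heart. With 4 other smooth muscle markers passing the filter, none was called in limma's fit at an adjusted p under 0.05, and 1 had an unadjusted p under 0.05, with a positive difference. The summed signal of that marker list ran from 6683 to 7846 in normal and from 8690 to 12111 in diabetic hearts, led by Synpo2 and Smtn. That sum takes in all 6 genes of the list on the array, 2 of them below the filter. Without Synpo2 and those 2, the other 3 genes overlapped, at 3242 to 3574 in normal and 2812 to 3476 in diabetic hearts. Of these, Myh11 was at a log2 difference of -0.18 and Mylk at -0.28. Synpo2, an actin-bundling protein also found in striated muscle, averaged 3905 in normal and 6852 in diabetic hearts (log2 difference 0.79 ± 0.21, adjusted p = 0.087 in limma), and Smtn, smoothelin, 1127 and 1273.

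Acta1 was the actin with the opposite sign. Its signals were 7585, 7411 and 9793 in normal hearts and 14459, 11951 and 8256 in diabetic hearts. Diabetic hearts 1 and 2 exceeded all normal hearts, but diabetic heart 3 lay within the normal range. The means were 8263 ± 1328 and 11555 ± 3120, with a log2 difference of 0.46 ± 0.22. With 1 heart left out it ranged from 0.28 to 0.68.

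Of the actin-binding proteins other than Tagln, Cfl1 had groups without overlap. Cfl1, in a set shared with the annotated copy Cfl1l1, held 1383, 1501 and 1737 in normal and 1284, 1047 and 1046 in diabetic hearts, with no overlap and a log2 difference of -0.45 ± 0.16. Tmsb10, shared with the pseudogene Tmsb10-ps6, held 317, 230 and 348 against 153, 224 and 233. Diabetic heart 3 was just above normal heart 2, and the log2 difference was -0.52 ± 0.21. For Pfn1 and Tmsb4x the groups overlapped. Pfn1 held 1954, 1486 and 2190 against 2126, 1964 and 1759, a log2 difference of 0.07 ± 0.18. Tmsb4x held 9496, 10007 and 10658 against 8893, 10174 and 11505, a log2 difference of 0.01 ± 0.15 that turned to -0.09 under quantile normalization. For Pfn1 the sign turned without normal heart 2 (-0.09). So neither gene is given a direction here.

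**Figure D3:**
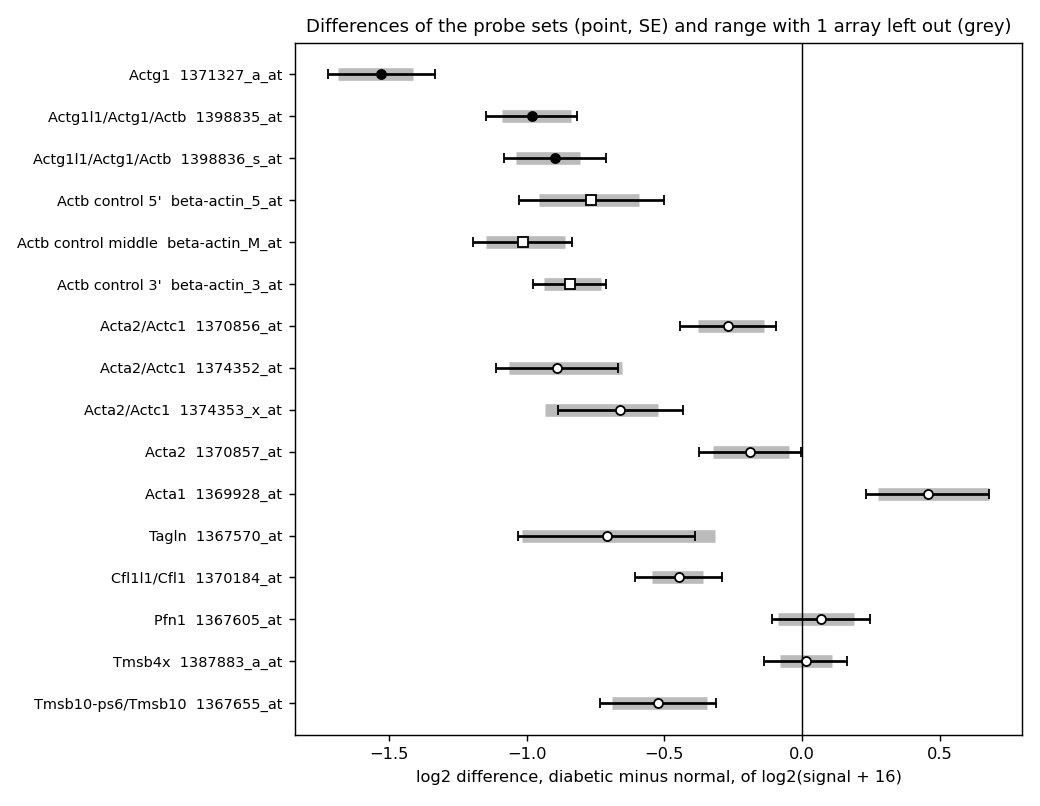
Log2 difference of log2(signal + 16), diabetic minus normal, of the 16 probe sets, with SE (bars) and the range when 1 array is left out (grey). Filled points mark the 3 cytoplasmic actin sets with a limma adjusted p under 0.05, open circles the other 10 sets in the fit, and squares the beta-actin controls, which have no limma call; Acta1 alone lies wholly to the right of 0.

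Against the whole array, 3 of the 13 probe sets in limma's fit had an adjusted p under 0.05 and were lower in the diabetic hearts, namely Actg1 and both sets shared with Actb. None was higher, and none had an unadjusted p under 0.05 with a higher signal, while 7 did with a lower one. Over all tested probe sets, 1.20% were called lower and 1.38% higher. Groups without overlap occurred at 6 of the 13 in the lower direction and at none in the higher, against 13.7% and 12.1% of all tested probe sets. The median log2 difference of the 13 was -0.52, beside -0.01 over all tested probe sets, whose central 80% ran from -0.43 to 0.42. These counts describe genes proposed with this contrast in view, and nothing is read from them. With 1 heart left out the log2 difference of Actg1 ran from -1.69 to -1.41, that of 1398835_at from -1.09 to -0.84 and that of 1398836_s_at from -1.04 to -0.81. The adjusted p of 1398835_at was above 0.05 without any heart other than normal 1, and that of 1398836_s_at without any other than diabetic 1. Without the filter on dim probe sets no member was called.

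The transcription factor SRF drives many actin genes through the CArG box, a motif of 2 C, 6 A or T and 2 G that reads the same on both strands. RefSeq promoters (assembly GRCr8) were found for 8 of the 10 genes, not for Actb or Tagln. The 250 bases before the annotated start were searched. They are shown for the gene that differed most, for the one of opposite sign and for the cardiac form, with complete CArG boxes and those with 1 G or C among the 6 central bases in capitals.
Actg1 promoter, chr10:106120952-106121201, minus strand: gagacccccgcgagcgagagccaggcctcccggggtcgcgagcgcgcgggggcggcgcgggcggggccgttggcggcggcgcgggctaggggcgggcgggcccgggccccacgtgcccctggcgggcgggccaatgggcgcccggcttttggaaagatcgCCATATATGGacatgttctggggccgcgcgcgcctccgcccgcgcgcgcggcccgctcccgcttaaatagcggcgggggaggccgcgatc
Acta1 promoter, chr19:68784195-68784444, minus strand: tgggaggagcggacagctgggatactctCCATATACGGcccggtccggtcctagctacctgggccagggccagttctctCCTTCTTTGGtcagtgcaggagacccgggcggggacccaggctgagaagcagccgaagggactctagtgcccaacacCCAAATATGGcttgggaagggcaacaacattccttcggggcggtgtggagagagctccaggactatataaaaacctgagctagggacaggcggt
Actc1 promoter, chr3:121271828-121272077, minus strand: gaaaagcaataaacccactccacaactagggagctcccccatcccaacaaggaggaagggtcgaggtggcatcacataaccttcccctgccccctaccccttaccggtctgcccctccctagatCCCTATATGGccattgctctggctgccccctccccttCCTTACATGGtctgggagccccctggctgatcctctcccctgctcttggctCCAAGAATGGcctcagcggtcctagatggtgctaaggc
Actg1 held 1 complete box, CCATATATGG, whose first base lies 90 bases before the start, and Acta1 held 1, CCAAATATGG, 94 bases before it. Between the groups, Actg1 was at a log2 difference of -1.53 without overlap and Acta1 at 0.46 with overlap. Any part of the boxes in this was not tested. Acta2 and Actc1 both held the near match CCCTATATGG, at 134 and 126 bases, and Acta1 held CCATATACGG at 222 bases. Acta2, whose sequence is not shown, also held CCTTGTTTGG at 84 bases. The further near matches of Acta1 and Actc1 are in capitals above. In Cfl1, Pfn1, Tmsb4x and Tmsb10 neither form was in this window. A complete box occurred in 1.5% of all 33469 promoters of the same length and a near match in 6.84%. A match is a string in the sequence and was not tested as a binding site.

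Other genes of the actin cytoskeleton came from 6 lists of 179 genes, which include genes around SRF that are not cytoskeletal, such as Egr1 and Fos. Of the 179, 149 had a probe set of their own and 134 passed the filter, each taken at its brightest tested set. In limma's fit 2 of the 134 fell and none rose (at an unadjusted p under 0.05, 29 were lower and 10 higher), a share of 1.49% lower beside the 1.20% of all tested probe sets. Differences were negative in 87 and positive in 47, with a median of -0.12, and groups did not overlap for 33 lower and 16 higher genes, which is 24.6% and 11.9%, beside 13.7% and 12.1% of all tested probe sets. Complete CArG boxes stood in 10 of the 179 promoters of these lists (5.59%). The genes around SRF are among them, so this share is partly set by the choice of lists, and nothing is read from it.

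Flna and Daam1 were the genes that fell. Flna encodes filamin A, which crosslinks filaments into networks and ties them to integrins. Its signals were 1342, 1509 and 1821 in normal and 816.7, 800.1 and 750.2 in diabetic hearts, a log2 difference of -0.96 ± 0.16 (limma adjusted p = 0.0189). Daam1, a formin that elongates unbranched filaments, held 753, 824 and 721 against 428, 449 and 417, a log2 difference of -0.81 ± 0.14 (adjusted p = 0.0207), and its other tested probe set was at -1.03. In both genes the diabetic hearts were close to each other and clear of the normal hearts. Daam1 lost its call whichever heart was left out (adjusted p at most 0.0716), and Flna kept its call only without normal 1 or diabetic 1 (at most 0.0676), with differences of -0.85 to -0.75 and -1.06 to -0.84. With the replicate number as a block, which the hearts did not bear out as a pairing, the adjusted p was 0.0504 for Flna and 0.0533 for Daam1, and without the filter 0.105 and 0.106.

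The other lists held no call. Among 29 genes of filament turnover and capping, the smallest p-values were those of Tmod3, a pointed-end capping protein, at 474.9 in normal and 259.8 in diabetic hearts (log2 difference -0.85 ± 0.19, adjusted p = 0.0516), and Coro6, a coronin, at 1192 and 1755 (0.55 ± 0.13, adjusted p = 0.0647). Cfl2, the muscle cofilin, was at 4623 ± 134 and 5056 ± 519, and Pfn2 at 285.3 ± 34.2 and 327.1 ± 59.0. Both were chosen as paralogs of Cfl1 and Pfn1 after their values were seen, and both overlapped between groups. Of 12 non-muscle myosin genes, Myh10, a non-muscle myosin heavy chain, was at 395.1 and 245.5 (adjusted p = 0.102) and Myo6 at 197.8 and 286.0 (adjusted p = 0.197). Of 14 genes around SRF, Fhl2, a sarcomere-associated LIM protein, was at 21437 and 13784 (log2 difference -0.64 ± 0.14, adjusted p = 0.0519) and Csrp2, another LIM protein, at 153.7 and 299.9 (0.88 ± 0.23, adjusted p = 0.0811). Srf itself, named for its link to the CArG box after its value was seen, held 1162, 965 and 1349 in normal and 883, 840 and 786 in diabetic hearts, a log2 difference of -0.45 ± 0.16 (adjusted p = 0.167) at its brighter set and -0.10 at the other. The groups did not overlap at the brighter set.

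**Figure D4:**
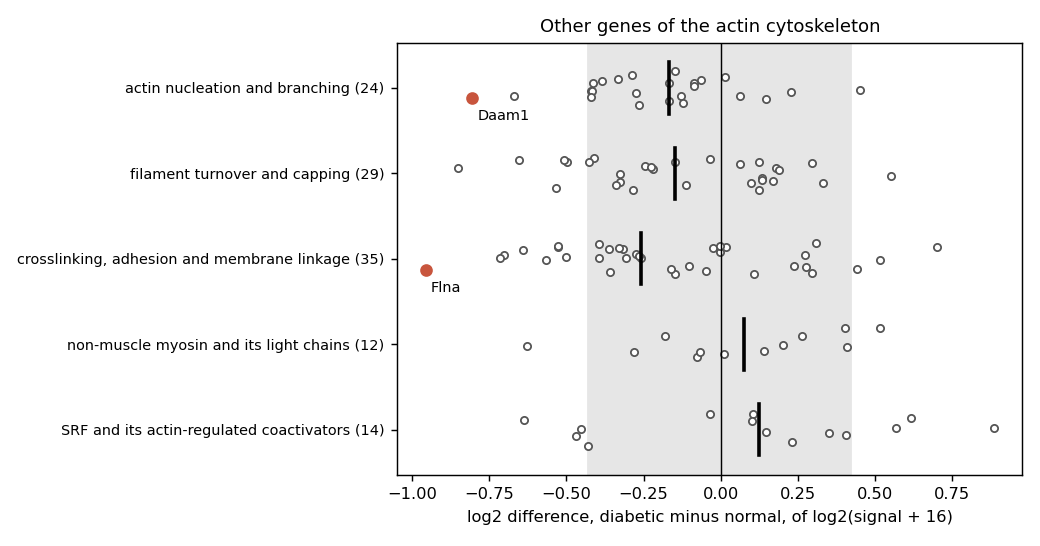
Log2 difference of log2(signal + 16), diabetic minus normal, of 114 genes in 5 actin cytoskeleton lists (number tested in brackets). The list around SRF also holds genes that are not cytoskeletal. Bars are list medians, and the central 80% of all tested probe sets is shaded. Filled points are Flna and Daam1, the 2 genes with a limma adjusted p under 0.05; the list medians run from -0.26 to 0.12.

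The left ventricle holds several cell types with different actins, and in whole tissue fewer cells of a type and less RNA per cell cannot be told apart. Cardiomyocyte markers were bright, with Atp2a2 and Myl2 leading, and their summed signal overlapped between groups (327999 to 412049 in normal, 291012 to 356624 in diabetic hearts), with 1 of 12 called lower, Myh6. Over these 12 genes, 11 differences were negative and 1 positive, with a median of -0.15. Groups did not overlap for 3 of them, all lower in the diabetic hearts. Of 9 fibroblast markers tested, 4 fell in limma's fit (Col1a1, Col1a2, Col3a1 and Lum) and none rose. The summed signal, with 1 further gene below the filter, ran from 33104 to 37831 in normal and from 21453 to 22807 in diabetic hearts. Dcn, the brightest, was at 14343 and 14186. The pericyte sum was lower without overlap (4875 to 5759 against 4035 to 4232, led by Rgs5 and Abcc9), with 0 of 6 called in limma's fit and 2 lower at an unadjusted p under 0.05. Those were Rgs5 and Abcc9, and the other Abcc9 probe sets were at 0.55 and -0.32. The other 4 pericyte genes summed to 1316 to 1508 and 1444 to 1514. Of them, Cspg4, Kcnj8 and Notch3 were at log2 differences of 0.15, 0.10 and 0.03, and Pdgfrb had a negative difference. Over the 6 genes, 3 differences were negative and 3 positive, with a median of -0.01. The endothelial sum overlapped (8238 to 9265 and 8083 to 9161, led by Kdr and Emcn), with 1 of 8 called lower, Tie1. The macrophage and leukocyte sum overlapped too (10568 to 12577 and 9896 to 12992, led by Cd74 and Lyz2), with 0 of 9 called in limma's fit, 1 lower at an unadjusted p under 0.05, and 5 further genes below the filter. Erythrocyte markers (Hbb and Alas2) summed to 19439 to 25746 and 16011 to 24859. Atrial markers summed to 3871 to 5176 and 20566 to 30669, led by Nppa, the 1 of 4 called, which rose. The other 3 atrial genes summed to 353 to 1360 and 792 to 1319. Myl7, an atrial light chain, was at 358 ± 394 and 309 ± 169. Without Nppa and Myl7, the 2 genes left (Sln and Myl4) summed to 191 to 548 and 505 to 851, with overlap. All 4 atrial genes had a positive log2 difference, with a median of 1.04, though the mean signal of Myl7 was lower in the diabetic hearts. Groups did not overlap for 1 of the 4. The part of fibroblast, pericyte or atrial cells in the actin differences was not tested.

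**Figure D5:**
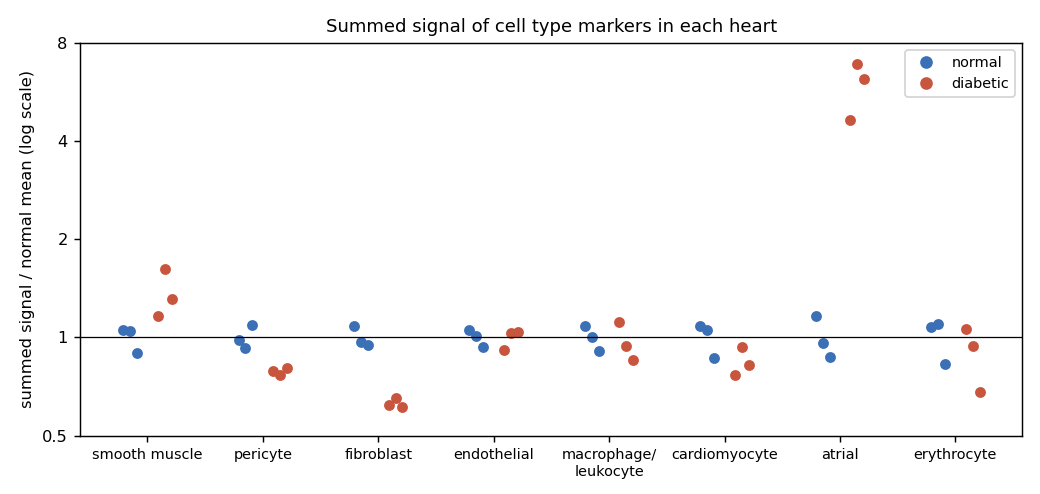
Summed signal of each marker list in each heart, divided by the mean of the 3 normal hearts (log scale), normal in blue and diabetic in red. Genes below the filter are included. Fibroblast and pericyte sums lie lower in all 3 diabetic hearts, smooth muscle and atrial sums higher, and the other 4 overlap. Without Rgs5 and Abcc9 the pericyte sums overlap, as do the atrial sums without Nppa. The smooth muscle sums of tested genes without Synpo2 overlap too.

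Genes were ranked by how much they ran like 1398836_s_at, the brighter of the sets shared by Actb, Actg1 and Actg1l1. The measure was Pearson's r over the 6 arrays, among 8091 tested single-gene probe sets. The first 5 were Fam20b (r = 0.998), Zc3h15 (0.994), Prkar1a (0.991), Bcam (0.990) and Aldh18a1 (0.989), with log2 differences of -0.62, -0.45, -0.20, -0.76 and -0.92. These r values carry the gap between the groups. With the group means removed the first 5 were Mat2a (0.999), Fars2 (0.998), Sppl2b (0.996), Fam20b (0.993) and Cpq (0.991). On that second measure the beta-actin controls stood at 0.90 (5'), 0.61 (middle) and 0.53 (3'). The other set with the same annotation, 1398835_at, stood at only 0.31. Pfn1 was at 0.87, Acta1 at 0.70, Cfl1 at 0.67, Actg1 at 0.46, Tagln at -0.45 and Tmsb4x at -0.50. The remaining member sets lay from -0.26 to 0.29. All share the same 6 arrays, and with so few of them such values are only a description.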

How the data were processed

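One Affymetrix array per heart gave 1 signal intensity per probe set. The deposited intensities are on a linear scale, and the sources used here do not name the authors' software or normalization. The 2% trimmed means were nearly equal on all arrays, so the values were used as deposited, and 6 arrays set the precision. Signals ran from 0.2 to 72999.3, with array medians of 180.3 to 191.3.

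Names came from the platform annotation, updated through RefSeq genes (GRCr8). Of 15866 probe sets outside 57 controls, 12783 had 1 gene, 312 several and 2771 none named here. A pseudocount of 16 was added before log2. Probe sets above the 40th percentile of mean signal were tested (9518) with limma 3.58.1 in R 4.3.3 (lmFit, eBayes, two-sided, with 1 term for diabetic against normal). Called, rose and fell mean a Benjamini-Hochberg adjusted p under 0.05, and 245 were called. The code was tested on simulated data.

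Members and lists were chosen with earlier results of these data known. Named genes are all members, list genes that were called (or the 2 smallest p-values of a list with none), the 2 brightest genes of each marker list, and the 5 most alike by r. Called marker genes outside that rule, and markers named beside their list's sum, were chosen after their values were seen. The genes of 1 list are counted in the totals and not reported here by name. Same-numbered hearts did not deviate together (r = 0.08, 0.03 and 0.01). Alternatives covered pseudocounts, scaling, filters, priors, weights, a replicate block and each array left out. Figures used matplotlib 3.10.9.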

Additional observations from a re-analysis of the deposited data

How the results depend on the processing

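The log2 differences of the 16 probe sets moved by less than the spread between hearts in all 304 combinations of probe set and alternative. Much of that was fixed in advance. A change of filter or prior, or the replicate block, leaves a log2 difference as it is. Leaving out 1 of 3 hearts cannot move it beyond that spread. Only the pseudocounts, scalings and array weights could have come out otherwise. The count of member probe sets called lower was 3, and 2 to 4 under the other settings, except 0 without the filter on dim probe sets and 1 to 2 with 1 array left out (1 without normal 2, normal 3 or diabetic 3). None was called higher in any of them. The shared cardiac set 1374352_at joined the calls with a pseudocount of 64, the filter raised to the 60th percentile or a prior that follows intensity. With the replicate number as a block, which same-numbered hearts did not support, 2 member sets were called lower.

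Of the other actin cytoskeleton genes, 2 were called lower, against 5 with a pseudocount of 64, 7 with the filter raised to the 60th percentile, 7 with a prior that follows intensity, 4 with array weights, 0 without the filter, 0 with the replicate block, and 0 to 1 with 1 array left out (0 without normal 2 or 3 or diabetic 2 or 3, 1 without normal 1 or diabetic 1). None was called higher, against 1 with a pseudocount of 64, scaling to Gapdh, the filter at its 60th percentile, that prior or any probe set of the gene. Chosen after seeing the data, no filter with an intensity trend gave 5 lower and 1 higher, and a filter on mean log2 signal gave 4 lower (274 probe sets called in all). The cause was not tested. Scaling to Gapdh moved the median of all tested probe sets from -0.01 to 0.06. The beta-actin 3'/5' log2 ratio ran from -0.19 to 0.09 with 1 array left out (0.0919 without normal replicate 2, from -0.0785 with all arrays). Dim sets such as Tagln, Acta2 and Tmsb10 lie nearest to background.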
